A study of Mus musculus with 9 samples.

Results

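The 3 control libraries of an RNA sequencing series of 9 are described here. They hold the RNA of MLO-Y4 cells, a mouse line labelled as osteocyte, kept beside unstimulated primary chondrocytes. These 3 libraries were chosen by their labels alone, and no other library entered any value. The MLO-Y4 cells grew on collagen-coated plates, and the chondrocytes, from young C57BL/6J mice, sat on porous transwell inserts above them, so that soluble factors could pass between the cell types. The other 6 libraries, from wells in which interleukin-1β had been given to the chondrocytes before 24 h or 48 h of co-culture, were not used. How long the control wells were cultured is not stated in the labels. They number the control samples 1 to 3 without saying whether these were separate cultures, so the SD given below may be technical. No groups were compared and no test was run. The question was which genes these cells express, at what level, and which they do not.

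Osteocytes are osteoblasts that have become buried in the bone they made. They sense load through long processes joined by connexin gap junctions, and they send secreted signals to osteoblasts, osteoclasts and the kidney. Podoplanin (Pdpn) marks the early osteocyte in which processes form, phosphate genes such as Phex and Dmp1 mark its maturation, and sclerostin (Sost) and Fgf23 mark the mature cell. MLO-Y4 is an immortalized line, made from long bone of mice that carried the SV40 large T antigen under the osteocalcin promoter, and it stands for an early rather than a mature osteocyte. As a model it is limited to the cells of 1 line.

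Levels are given in transcripts-per-million (TPM), the deposited read count of a gene divided by its deposited length and scaled so that all genes of the table have the same total in every library. TPM is the scale used for every comparison between genes. A gene is called expressed where its TPM was at least 1 in each of the 3 libraries, and at the floor where no library had more than 3 counts. A gene between these is called low. Ranks are among the 21970 protein-coding genes by mean TPM, with 1 the highest. The libraries held 12250628 to 15956441 counts, so that 3 counts came to 0.188 to 0.245 counts-per-million (CPM), and 0 counts in a library allow a level up to that limit, for counting error only. The deposited length decides part of each TPM. Orders and overlaps of levels are by deposited lengths unless said otherwise. Where the length of the annotated canonical transcript moved the level of a named protein-coding gene above the floor by over 1.5 times, or parted genes whose levels are compared, that second TPM is given beside it.

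Of the protein-coding genes 11021 were expressed, which is 50.2%. A further 1689 were low, and 9260 were at the floor, which is 42.1%. Every count of list or family members below is to be read against these shares. The transcriptome was broad. Between 524 and 575 genes held 50% of the protein-coding TPM of a library, and 88 genes had a mean TPM of 1000 or more. Another 1710 lay from 100 to 1000, 6916 from 10 to 100 and 2307 from 1 to 10. Protein-coding genes took 98.2 to 98.3% of the counts, lncRNA genes 0.498 to 0.522% and mitochondrial genes 2.61 to 2.81%. The libraries were close to each other. The median coefficient of variation among them was 3.24% for genes at 1000 TPM and above, 7.05% for those from 10 to 100, 13.1% for those from 1 to 10 and 46.1% for low genes. They were not copies of each other, since counts differed between libraries by 4.91 to 8.14 times the chi-square that counting alone gives.

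Osteopontin (Spp1), a secreted phosphoprotein of bone matrix, was the highest nuclear gene by deposited lengths, with a TPM of 8227, 7745 and 7945 in replicates 1 to 3. It held rank 5 in every library, below mt-Co1, mt-Cytb, mt-Nd1 and mt-Nd2 of the mitochondrial genome. With the canonical transcript length its mean fell from 7972 ± 242 to 4421 TPM and its rank to 11. The 20 highest protein-coding genes held 7 mitochondrial genes in all, with mt-Co1 at a mean of 22094 TPM. They held 4 ribosomal protein genes, Rplp1, Rps15, Rpl41 and Rps2, and the elongation factors Eef1a1 and Eef2. The ferritin chains Ftl1 and Fth1, galectin-1 (Lgals1), the calcium-binding protein S100a6, the cytokine Mif and β-actin (Actb) made up the rest. Of these, Lgals1 stood at 6340 TPM and rank 8. By canonical length Fth1 moved from 3309 to 9267 TPM and Rpl41 from 3835 to 5999.

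**Figure D1:**
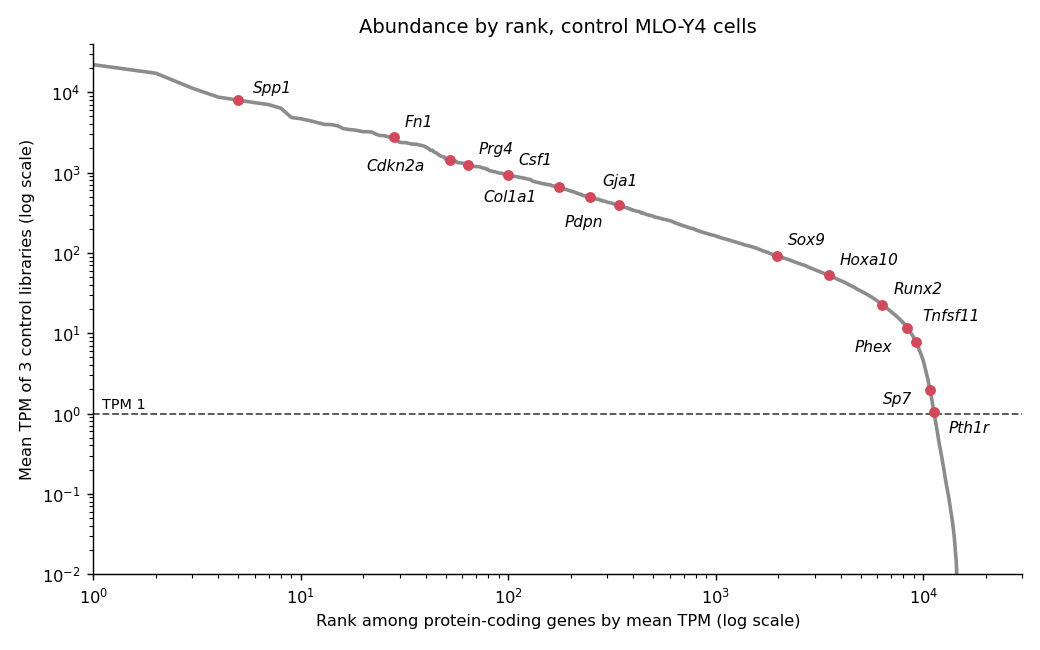
Mean TPM of the 3 control libraries (log scale, y axis) against rank among protein-coding genes (log scale, x axis), with 15 genes of the text marked. Spp1 sits at rank 5, Gja1 and Pdpn at ranks 246 and 340, and Sp7 and Pth1r where the curve drops through TPM 1.

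Of 22 osteocyte genes 15 were expressed, which is 68.2%, against 50.2% of all protein-coding genes. In this list 1 was low and 6 were at the floor. The median TPM of the osteocyte list was 74.3, against 1.47 over all protein-coding genes. The list was chosen with earlier results of these data known, so this contrast is no independent support for the cell type. Connexin 43 (Gja1), the gap junction protein of osteocyte processes, had a TPM of 500.5, 453.8 and 530.8 (495 ± 38.8, SD, n = 3) and held rank 246. Pdpn, the membrane glycoprotein of early processes, had 388.3, 392.7 and 405.6 (396 ± 8.98). Both given markers of the labelled cell type were thus expressed in every library, Pdpn at ranks 321 to 346. Their ranges did not overlap, with Gja1 above Pdpn in all 3. The size of the gap depended on length. Gja1 stood 1.25 ± 0.0833 times as high by deposited lengths, and 7.39 times by canonical lengths, where Gja1 rose to 810 TPM and Pdpn fell to 110 at rank 1650.

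The other expressed osteocyte genes fell into a high and a low set. The actin-binding proteins Capg, Dstn and Pls3, which shape processes, stood at 708 ± 35.0, 309 ± 5.79 and 186 ± 11.2 TPM, Dstn at 148 by canonical length. Mmp14, the membrane collagenase needed to form processes, was at 271 ± 6.74 (434 by canonical length). The hyaluronan receptor Cd44 was at 166 ± 13.5. The pyrophosphate genes Ank (200 ± 10.8, or 73.1 by canonical length) and Enpp1 (82.0 ± 5.32) export pyrophosphate and make it, and both were well expressed. Cd109, Hyou1 and Slc39a14 lay between 66.5 and 138 TPM, Slc39a14 at 101 by canonical length. The phosphate-regulating endopeptidase Phex was far lower, at 8.56, 6.75 and 8.27 TPM. So were the secretory kinase Fam20c, at 10.0, 11.1 and 7.62 TPM, and the homeobox gene Irx5, at 7.59, 7.61 and 7.53 TPM. The 3 genes lay at ranks 8810 to 9253, and by canonical length at 5.92, 12.9 and 6.90 TPM for Phex, Fam20c and Irx5. Nephronectin (Npnt), an integrin ligand, was low, with 11 to 18 counts.

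No count of Sost, Fgf23, Mepe, Dkk1 or Ptprz1 was found in any of the 3 libraries. Sost is the secreted WNT inhibitor of mature osteocytes, Fgf23 the phosphate hormone, Mepe a matrix phosphoglycoprotein and Dkk1 another WNT inhibitor. Dmp1, the dentin matrix protein of osteocytes, had 0, 0 and 3 counts. Of the markers of the maturing and the mature osteocyte introduced above, Dmp1, Sost and Fgf23 were thus at the floor. Phex was expressed, at a mean of 7.86 TPM, with Fam20c and Irx5 at a similar level. The early marker Pdpn and the genes of processes named above were far higher.

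The 250 bases before the annotated start of 4 genes are shown. They set the high genes Pdpn and Csf1 beside Sost and Dmp1, osteocyte genes at the floor. They were read from GRCm39, the build of the deposited coordinates, at the start of the GENCODE canonical transcript, and hold no annotated exon. Capitals mark CG dinucleotides. Pdpn lies on the minus strand with the window chr4:143026144-143026393, and Csf1, the highest of the secreted regulators below, on the minus strand with chr3:107667807-107668056. Sost lies on the minus strand with chr11:101857848-101858097, and Dmp1 on the plus strand with chr5:104350226-104350475.
Pdpn: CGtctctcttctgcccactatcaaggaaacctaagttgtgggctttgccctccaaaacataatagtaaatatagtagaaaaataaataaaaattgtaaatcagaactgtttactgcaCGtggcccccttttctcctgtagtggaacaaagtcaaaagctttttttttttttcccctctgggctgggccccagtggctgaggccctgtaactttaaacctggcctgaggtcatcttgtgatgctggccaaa
Csf1: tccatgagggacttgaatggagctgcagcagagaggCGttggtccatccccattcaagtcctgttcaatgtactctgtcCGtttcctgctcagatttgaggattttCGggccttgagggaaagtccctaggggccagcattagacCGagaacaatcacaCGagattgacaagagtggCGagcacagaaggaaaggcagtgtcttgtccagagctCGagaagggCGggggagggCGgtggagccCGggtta
Sost: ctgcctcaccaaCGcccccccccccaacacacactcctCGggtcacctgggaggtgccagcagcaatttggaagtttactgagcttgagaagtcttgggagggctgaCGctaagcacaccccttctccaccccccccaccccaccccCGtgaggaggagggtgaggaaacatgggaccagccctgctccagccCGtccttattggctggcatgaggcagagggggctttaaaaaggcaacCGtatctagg
Dmp1: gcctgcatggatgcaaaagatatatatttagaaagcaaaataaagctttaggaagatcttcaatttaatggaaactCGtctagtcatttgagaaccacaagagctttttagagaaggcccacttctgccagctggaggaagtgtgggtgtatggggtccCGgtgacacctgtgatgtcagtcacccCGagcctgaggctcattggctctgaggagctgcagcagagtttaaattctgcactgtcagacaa
The windows held 2 CG dinucleotides for Pdpn, 10 for Csf1, 6 for Sost and 3 for Dmp1, and their GC content was 43.2%, 55.2%, 61.2% and 46.0%. None held the letters TATAAA on either strand. Pdpn, at 396 TPM, had fewer CG dinucleotides than Sost, which had no count, but its window also had the lower GC content. The observed over expected CpG ratio, given below for 300-base windows, allows for base composition. It was 0.414 for Pdpn and 0.568 for Csf1, and lower than both of these for Sost and for Dmp1.

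Across all protein-coding genes the windows differed with abundance, up to the range from 10 to 100 TPM and little beyond it. Each ran from 250 bases before to 50 bases after the canonical start, and was read for 99.1% of the genes. The observed over expected CpG ratio, which is near 1 where CG dinucleotides are not depleted, had a median of 0.221 at the floor, 0.410 in low genes, 0.616 from 1 to 10 TPM, 0.750 from 10 to 100 and 0.759 from 100 upwards. A ratio of 0.6 or more was found in 14.9% of genes at the floor, in 72.8% from 10 to 100 TPM and in 72.1% from 100 TPM upwards. TATAAA, searched on both strands, was in 13.3% of all windows and in 20.55% of those at the floor. It was in 7.10% of those from 10 to 100 TPM and in 8.63% of those from 100 TPM upwards. The 15 expressed osteocyte genes had a median ratio of 0.4998 and the 6 at the floor 0.262. For the 13 expressed osteoblast genes it was 0.358, and for the 4 at the floor 0.473, so the order seen over all genes did not hold in that list. The lists described below were mixed. Cytokine receptors and matrix glycoproteins, among others, followed the order of all genes. Secreted regulators, receptor tyrosine kinases, proteoglycans and other collagens were among those that reversed it. This is a description of letters near a start, over genes that share families and base composition, and a window says nothing of the factors bound there.

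**Figure D2:**
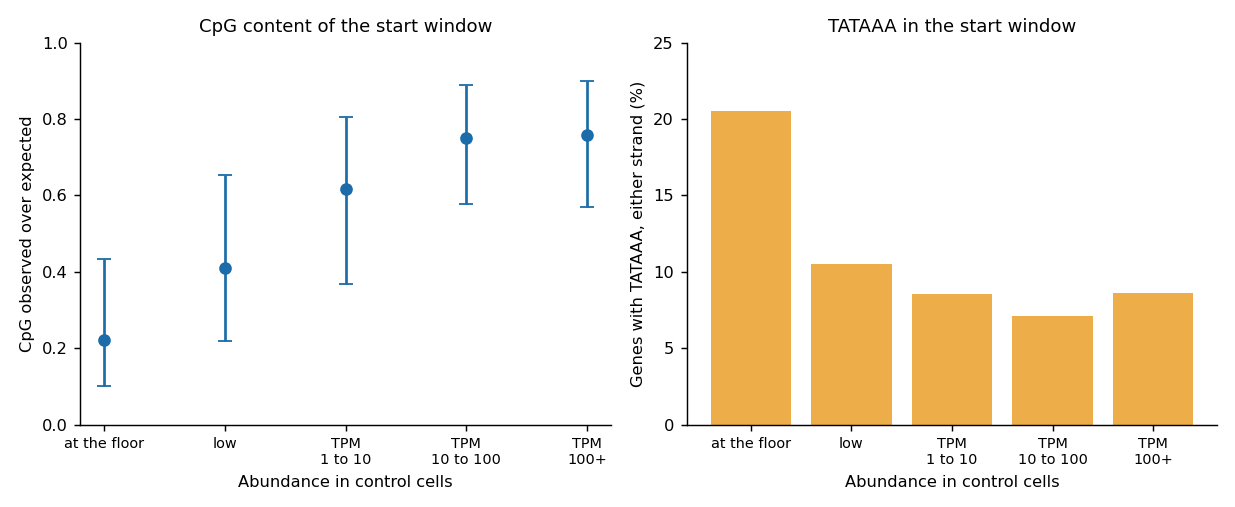
Left, observed over expected CpG ratio (y axis) of the window around the canonical start, as the median with lower and upper quartile, by abundance in control cells (x axis). Right, share of windows with TATAAA on either strand (%), which was 20.55% at the floor and between 7.10% and 10.5% in the other ranges.

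Of 22 osteoblast genes 13 were expressed, which is 59.1%, against 50.2% of all protein-coding genes. Another 5 were low and 4 were at the floor, and the list had a median TPM of 5.54. The highest, after Spp1, were Sparc, the collagen-binding osteonectin, at 671 ± 38.5 TPM, Col1a1 at 657 ± 32.1 and the transcription factor Atf4, which drives amino acid supply for collagen, at 632 ± 16.4. Their ranges overlapped by deposited lengths. By canonical lengths Sparc was at 826 ± 47.5, Atf4 at 642 ± 16.6 and Col1a1 at 545 ± 26.8 TPM, so that their order changed. Col1a1 encodes the α1 and Col1a2 the α2 chain of type I collagen, which enter the triple helix in a fixed ratio. Col1a1 had a TPM of 627.0, 653.2 and 690.9, and Col1a2 69.0, 70.5 and 76.3. By deposited lengths the ratio was 9.14 ± 0.117, and by canonical lengths it was 4.36, with Col1a2 at 125 TPM. Col1a1 was thus above Col1a2 on both scales.

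Osteocalcin, whose promoter was used in the transgene behind this line, is encoded by Bglap and Bglap2. These are near-identical neighbours whose reads may be split by the counting. Bglap2 had a TPM of 105.8, 110.2 and 107.2, and Bglap 38.4, 24.5 and 27.9. Both were expressed in every library. Alkaline phosphatase (Alpl), which frees phosphate for mineral, was at 25.5, 23.2 and 21.9 TPM. The master osteoblast factor Runx2 was at 23.8, 20.3 and 23.7 TPM and overlapped with Alpl by deposited lengths, with means of 23.2 and 28.1 by canonical lengths. Phospho1, a phosphatase of matrix vesicles, was at 6.38 ± 1.63 TPM. Sp7 (osterix), which acts below Runx2, was near the threshold at 1.37, 2.07 and 2.46 TPM. The parathyroid hormone receptor Pth1r was low, with 12, 16 and 9 counts (0.870, 1.48 and 0.805 TPM). Ibsp, which encodes bone sialoprotein, and Bmp3 had no count, and Msx2 and Smpd3 had at most 3 counts in a library.

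**Figure D3:**
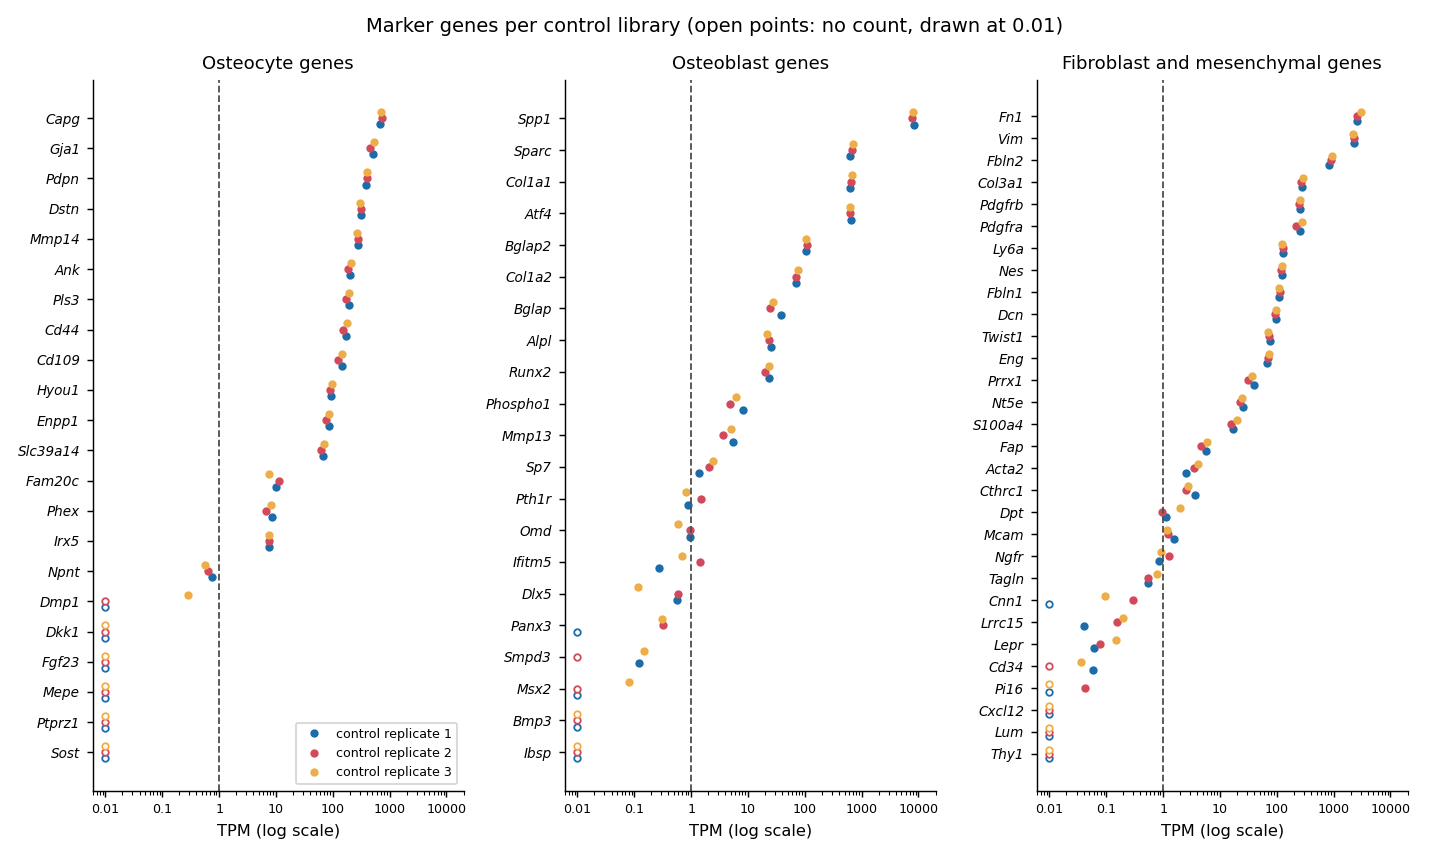
TPM (log scale, x axis) of osteocyte, osteoblast and fibroblast or mesenchymal genes (y axis) in each of the 3 control libraries, with the dashed line at TPM 1 and open points for no count. Capg, Gja1 and Pdpn lead the osteocyte panel, Spp1 stands above the other osteoblast genes, and Sost, Fgf23, Mepe, Thy1 and Lum hold only open points.

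Of 30 fibroblast and mesenchymal genes 19 were expressed, which is 63.3%, against 50.2% of all protein-coding genes. Another 5 were low and 6 were at the floor, and the list had a median TPM of 11.5. Fibronectin (Fn1), a matrix glycoprotein, had a TPM of 2606, 2573 and 3071 and the intermediate filament protein vimentin (Vim) 2260, 2309 and 2211. Fn1 was above Vim in each library by deposited lengths, with means of 2750 and 2260 TPM, and below it by canonical lengths, with 2866 and 3666. The PDGF receptors Pdgfrb and Pdgfra, which mark mesenchymal cells, overlapped at 254 ± 5.60 and 251 ± 31.3 TPM by deposited lengths, and were at 193 ± 4.34 and 287 ± 35.8 by canonical lengths. The limb mesenchyme factor Twist1 was at 72.9 ± 3.91 TPM and Prrx1 at 39.4, 31.7 and 37.3. Smooth muscle and myofibroblast genes lay near or under the threshold, with Acta2 at 3.38 ± 0.788 (2.00 by canonical length) and Tagln with 4 to 6 counts, although 66.7% of the Tagln exon bases also lie in exons of other genes. Thy1, Lum and Cxcl12, which mark many stromal fibroblasts and marrow stroma, had no count in any library. The adventitial markers Cd34 and Pi16 had at most 2 counts.

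Of 22 chondrocyte genes 4 were expressed, 8 were low and 10 were at the floor. Aggrecan (Acan), Col9a1, Col9a2, Matn1, Cnmd and Ucma had no count, and type II collagen (Col2a1), the main collagen of cartilage, had 1, 0 and 6 counts. These members of the chondrocyte list were thus at or near 0. The 4 expressed genes stood apart from them. Prg4, which encodes lubricin of the joint surface, had a TPM of 1229, 1210 and 1303, rank 64 of all protein-coding genes. Sox9, the factor that sets the cartilage fate, was at 96.5, 90.1 and 87.8 TPM, and its partner Sox5 at 29.3, 23.1 and 35.1, while Sox6 had no count. Matn3, a matrilin of cartilage matrix, was at 4.51 ± 0.830 TPM. Prg4 held 19152 to 24810 counts a library and Sox9 1379 to 1881, beside at most 6 of Col2a1. In bulk RNA a few cells with much of a transcript and many with little cannot be told apart.

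Lists of other cell types had 0 to 4 expressed members each. Endothelial and epithelial lists had no expressed member of 10 each, with 7 and 9 at the floor, against 42.1% of all protein-coding genes. Of 17 macrophage and osteoclast genes 4 were expressed and 9 were at the floor, and Ptprc, Adgre1, Itgam, Calcr and Tnfrsf11a, the RANK receptor, had no count. The summed TPM of that list was 325 to 355 a library, of which cathepsin K (Ctsk), a collagen-cleaving protease that osteocytes also use, made 304 ± 14.1 (182 by canonical length). Cd14, Cd68 and the CSF1 receptor Csf1r were at 26.0, 7.35 and 1.93 TPM. Of 10 lymphoid genes the immunoglobulin gene Ighm was expressed, at 2.56 ± 1.20 TPM. Of 10 skeletal muscle genes 1 was expressed, Myod1, at 1.88 ± 0.0550. Of 10 adipocyte genes Cebpa and Pparg, regulators of fat cell fate, were at 11.4 and 6.84 TPM, while Adipoq, Plin1, Lep and Cidec had no count. Of 10 neural and glial genes S100b and Tubb3 were expressed, at 27.8 and 5.57 TPM (18.4 and 2.43 by canonical length). Of 8 tendon genes Scx, Egr1 and Tnxb were expressed and Tnmd and Mkx had no count. The tendon factor Scx spread widely, at 36.6, 33.1 and 19.6 TPM, with replicate 3 the lowest.

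**Figure D4:**
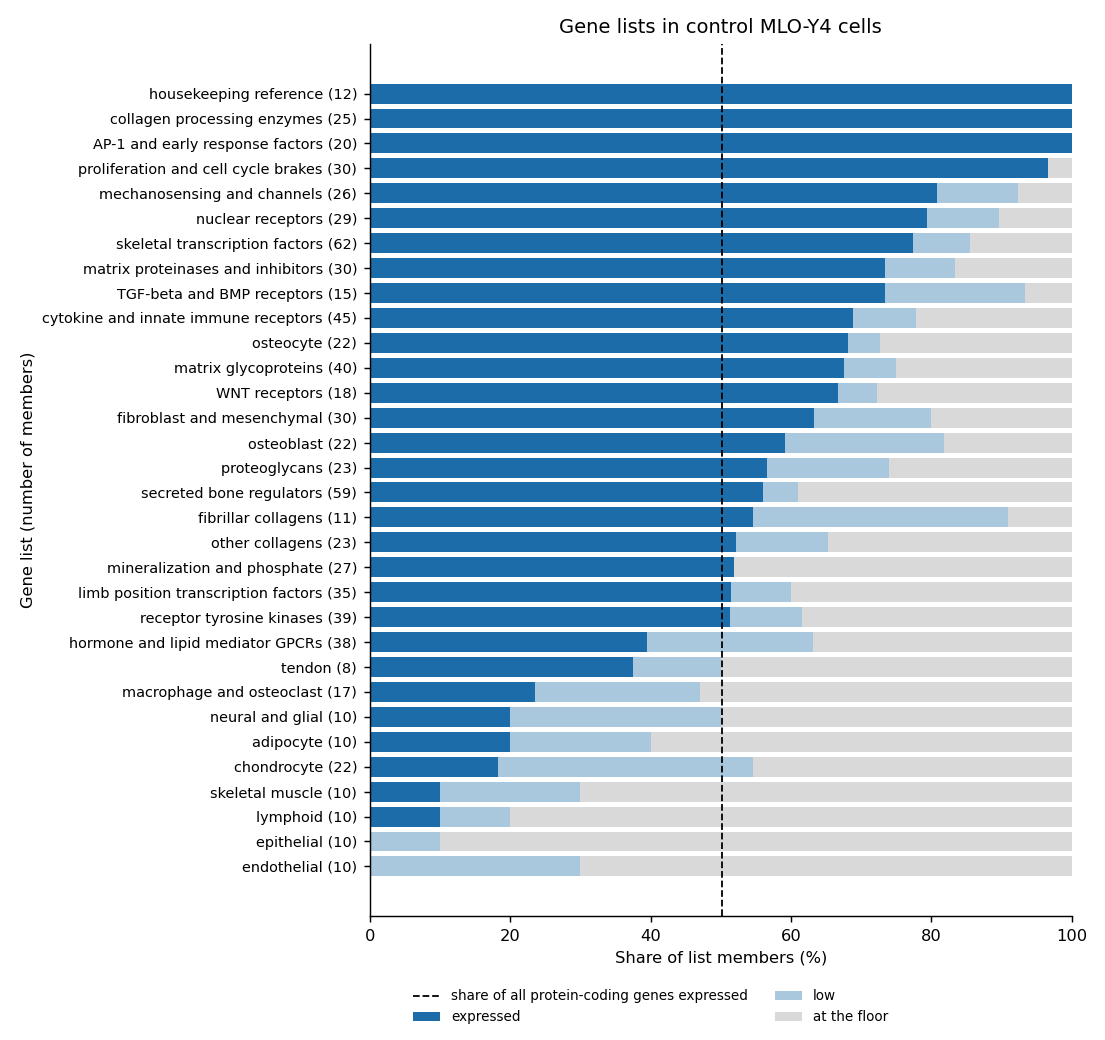
Share of the members of each of 32 gene lists (y axis, number of members in brackets) that were expressed, low or at the floor (%, x axis), with the dashed line at the 50.2% of protein-coding genes that were expressed. Collagen processing enzymes and AP-1 factors were expressed throughout, and endothelial and epithelial genes stand at 0.

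Genes of type I, III, V and VI collagen led the collagens. Of 11 fibrillar collagen genes 6 were expressed, which is 54.55%. After Col1a1, Col5a2 (290 ± 18.2 TPM) and Col3a1 (277 ± 14.4) overlapped, followed by Col5a1 (170 ± 6.69), Col5a3 (73.1 ± 2.40) and Col1a2. By canonical lengths the order was another, with Col3a1 at 367 ± 19.2, Col5a2 at 276 ± 17.4, Col5a1 at 129 ± 5.14, Col1a2 at 125 ± 6.78 and Col5a3 at 60.4 ± 2.01 TPM. Col11a1, Col11a2 and Col24a1 were low, at 0.545 to 0.766 TPM. Of 23 other collagens 12 were expressed, which is 52.2%, near the 50.2% of all protein-coding genes. Among them were Col6a1 at 512 ± 26.3, Col16a1 at 168 ± 4.79 and Col6a2 at 157 ± 5.08 TPM. The basement membrane chains Col4a1 and Col4a2 were at 149 ± 9.28 and 77.9 ± 4.12. Col10a1, the collagen of hypertrophic chondrocytes, was low, with 32, 20 and 6 counts, and 20.8% of its exon bases overlap another gene. Each of 25 collagen processing enzymes was expressed, with a median TPM of 92.4, against 50.2% over all protein-coding genes. P4hb, the β subunit of prolyl hydroxylase and a disulfide isomerase, was at 2257 ± 22.5. The procollagen C-proteinase enhancer Pcolce was at 766 ± 38.1 (1351 by canonical length), the collagen chaperone Serpinh1 at 707 ± 30.2 (461) and the crosslinking enzyme Lox at 646 ± 51.0.

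Of 40 matrix glycoproteins 27 were expressed, which is 67.5%, against 50.2% of all protein-coding genes, and 10 were at the floor. Ecm1, a binding protein of matrix and basement membrane, was at 3198 ± 69.3 TPM and thrombospondin-2 (Thbs2) at 1253 ± 132. The elastic fibre genes Efemp1 and Efemp2 were at 593 ± 18.3 and 315 ± 11.1, while elastin itself (Eln) was low at 1.04 ± 0.294 (1.58 ± 0.447 by canonical length) and fibrillin-1 (Fbn1) at 14.9 ± 1.78. Periostin (Postn), fibrillin-2 (Fbn2) and Mfap2 had no count. Matrix Gla protein (Mgp), an inhibitor of calcification, had 2, 1 and 3 counts. Of 23 proteoglycans 13 were expressed, which is 56.5%, against 50.2% of all protein-coding genes. Among them were syndecan-2 (Sdc2) at 522 ± 24.8 and biglycan (Bgn) at 455 ± 15.2 (860 by canonical length). Perlecan (Hspg2), which lines the osteocyte process, was at 166.6, 184.0 and 231.9 TPM. Decorin (Dcn) was at 96.0 ± 3.16 and its relative Lum had no count.

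Of 30 matrix proteinases and inhibitors 22 were expressed. The inhibitors Timp2 (1894 ± 44.5 TPM) and Timp1 (820 ± 22.4) stood beside the gelatinase Mmp2 (858 ± 22.4), the lysosomal protease Ctsb (939 ± 18.5) and Mmp14. Collagenase-3 (Mmp13) was at 5.47, 3.64 and 4.99 TPM and stromelysin-1 (Mmp3) at 7.58 ± 1.67, while Mmp8, Mmp16, Mmp10 and Mmp12 had at most 1 count. The aggrecanases Adamts5 and Adamts4 were at 39.0 ± 4.51 and 11.1 ± 0.578. Of 27 mineralization and phosphate genes 14 were expressed, none was low and 13 were at the floor. The expressed share was 51.85%, against 50.2% of all protein-coding genes. The annexins Anxa2 (1177 ± 42.7, or 2276 by canonical length) and Anxa5 (777 ± 27.3), which bind membranes in matrix vesicles, were high. The phosphate importers Slc20a1 and Slc20a2 and the exporter Xpr1 were expressed at 44.6, 34.2 and 9.83 TPM, the last at 17.3 by canonical length. The renal cotransporters Slc34a1 and Slc34a3 and the FGF23 coreceptor Kl had no count.

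Of 45 cytokine and innate immune receptors 31 were expressed, 4 were low and 10 were at the floor. Il1rl1, which encodes the interleukin-33 receptor ST2, was the highest by deposited lengths, at 519.8, 454.3 and 552.5 TPM. By canonical length it was at 496 ± 49.0, below Tnfrsf12a. The interleukin-1 receptor Il1r1 was at 52.2, 44.2 and 54.1 TPM, and its shared partner Il1rap at 7.95, 7.04 and 8.63 (mean 14.4 by canonical length). The decoy receptor Il1r2 had 2, 1 and 0 counts. The TNF receptors Tnfrsf1a and Tnfrsf12a were at 389 ± 6.40 and 411 ± 21.1 (347 and 591 by canonical lengths), and all exon bases of Tnfrsf12a also lie in exons of Hcfc1r1 on the opposite strand. The gp130 receptor Il6st (103 ± 12.8) and its partner Osmr (59.2 ± 3.45, or 97.8 by canonical length) stood above Il6ra (14.5 ± 1.20) and Lifr (3.78 ± 0.723). The sensors Tlr4, Tlr2 and Tlr3 were at 17.4, 16.6 and 8.45 TPM. Tlr7, Tlr8 and Tlr9 and the chemokine receptors Cxcr4, Ccr2 and Cx3cr1 had at most 2 counts in a library.

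Of 15 inflammasome and pyroptosis genes, chosen after their values were seen, 8 were expressed, beside 50.2% of all protein-coding genes. The pore protein Gsdmd was at 2.85, 5.23 and 2.86 TPM, with 26 to 46 counts a library, and the inflammatory caspases Casp1 and Casp4 were at 3.00 ± 0.335 and 6.68 ± 1.05 (4.60 and 12.9 by canonical lengths). Its relative Gsdme was at 14.8 ± 0.262, or 63.2 by canonical length, with 24.0% of its exon bases in exons of Pals2, and the membrane rupture protein Ninj1 at 91.9 ± 9.89. The adaptor Pycard was low at 1.09 ± 0.310. Nlrp3 had 0, 0 and 2 counts, Nlrc4 0, 1 and 1, and Aim2 and Il1b had none.

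Of 29 nuclear receptors 23 were expressed, which is 79.3%, against 50.2% of all protein-coding genes. The retinoic acid receptor Rarg stood out at 474.9, 493.8 and 481.5 TPM and rank 254, and the oxysterol receptor Nr1h2 was at 82.6 ± 7.80. The glucocorticoid receptor Nr3c1 was at 79.1 ± 10.6 and the vitamin D receptor Vdr at 62.1, 60.9 and 67.9. The estrogen receptor Esr1 was at 2.69, 2.47 and 3.37 TPM (mean 4.66 by canonical length), Esr2 had 1 count in each library, and the progesterone receptor Pgr had none. Of 38 hormone and lipid mediator G protein-coupled receptors 15 were expressed, which is 39.5%, against 50.2% of all protein-coding genes. The sphingosine-1-phosphate receptor S1pr1, the thrombin receptor F2r and the lysophosphatidic acid receptor Lpar1 led, at 53.1 ± 2.85, 48.4 ± 2.16 and 39.6 ± 1.496 TPM, F2r at 27.2 by canonical length. Among prostaglandin E2 receptors Ptger3 and Ptger4 were at 13.2 ± 0.887 and 11.4 ± 0.783 (17.2 by canonical length), Ptger1 was low and Ptger2 had 0, 1 and 0 counts. The calcitonin receptor Calcr and the calcium-sensing receptor Casr had no count.

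Of 39 receptor tyrosine kinases 20 were expressed, which is 51.3%, near the 50.2% of all protein-coding genes. Axl, a receptor for Gas6, had a TPM of 391.1, 400.7 and 416.1, Fgfr1 251.4, 240.9 and 233.7, and the collagen receptor Ddr2 212.1, 174.2 and 252.6. Fgfr2, Fgfr4, Kit and Erbb4 had no count, and Fgfr3 was at 1.64 ± 0.549. Of 15 TGF-β and BMP receptors 11 were expressed. The coreceptor Tgfbr3 led at 136 ± 15.7, and the BMP receptors Bmpr1a and Bmpr2 were at 74.5 ± 8.40 and 15.8 ± 3.23. Acvrl1, a receptor of endothelial cells, had 3, 3 and 1 counts. Of 18 WNT receptors 12 were expressed, which is 66.7%, against 50.2% of all protein-coding genes. Fzd1 (58.9 ± 1.92), Fzd2 (43.4 ± 3.95) and the coreceptor Lrp6 (36.5, 28.7 and 41.4) were ahead of Lrp5 (10.3, 11.3 and 12.2). Lrp4, a receptor that sclerostin binds, was at 4.34 ± 0.286. The R-spondin receptors Lgr6 and Lgr4 were at 31.8 ± 1.32 and 19.2 ± 2.97, and Lgr5 had no count.

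Of 26 mechanosensing genes and channels 21 were expressed. The stretch-gated channel Piezo1 had a TPM of 102.8, 112.7 and 126.5, and 39.5% of its exon bases overlap Ctu2 on the opposite strand. Its relative Piezo2 was low at 0.240 ± 0.0446. The integrin chain Itgb1 was at 691 ± 32.8 (422 by canonical length), Itgb5 at 292 ± 8.93 and Itgb3, a partner of the αV chain, at 15.6 ± 1.36. The cation channels Trpv4 and Pkd2 were at 13.9 ± 2.02 and 38.7 ± 3.87. The ATP channel P2rx7 was at 6.69 ± 0.570 and pannexin Panx1 at 5.46 ± 0.692, well under Gja1. The calcium channel subunit Cacna2d1 was at 13.2 ± 2.23 and the pore chain Cacna1h had no count.

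Of 59 secreted regulators of bone 33 were expressed, 3 were low and 23 were at the floor, 17 of them with no count. The expressed share was 55.9%, against 50.2% of all protein-coding genes. Csf1, the growth factor of osteoclast precursors, was the highest, at 924.7, 928.3 and 919.4 TPM and rank 99. The osteoclast factor RANKL (Tnfsf11) was at 13.8, 12.0 and 9.24 TPM and its decoy osteoprotegerin (Tnfrsf11b) at 2.03, 1.34 and 2.32. RANKL was above its decoy in each library, by 6.82, 8.91 and 3.98 times, with 14 to 27 counts of the decoy. The BMP antagonist Grem1 was at 282 ± 24.4, the matricellular proteins Ccn2 and Ccn1 at 257 ± 8.48 and 174 ± 8.37, and the chemokine Ccl7 at 169 ± 7.49, beside the growth factors Tgfb1 (94.3 ± 10.6) and Vegfa (93.5 ± 1.49). By canonical length Tgfb1 rose to 161 TPM, above the 130 of Ccn1 and the 126 of Ccl7, so the order of these genes is not settled. Interleukin-6 (Il6) was low at 0.835 ± 0.371 (1.33 by canonical length, a mean above 1) and Ccl2 was at 51.1 ± 1.71. Bmp2, Igf2, Nog, Sfrp1, Wnt1, Wnt4, Wnt5a and Wnt16 had no count. Igf1 had 0, 1 and 0 counts.

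The deposited table assigns a family to its transcription factors. Of the largest families, C2H2 zinc fingers had 395 of 609 genes expressed, homeobox genes 59 of 225, basic helix-loop-helix genes 41 of 107 and leucine zipper genes 41 of 53. In that order the shares were 64.9%, 26.2%, 38.3% and 77.4%, against 50.2% of all protein-coding genes. Homeobox genes were at the floor in 65.3%, above the 42.1% of all protein-coding genes. The 10 highest were the cold shock proteins Ybx1 (1201 TPM) and Ybx3 (501), Hmga1 (783), Atf4, Rarg, Ssrp1 (390), Nfe2l1 (384), Hmgb2 (335), Mbd3 (322) and Atf5 (301). Among 62 skeletal factors 48 were expressed, with the homeobox gene Dlx3 at 149.6, 150.0 and 159.6 TPM, while its relatives Dlx5 and Dlx6 had at most 6 and 0 counts. Runx1 (32.0 ± 3.79, or 49.3 by canonical length) stood above Runx2 and Runx3 (3.29 ± 0.684). Each of 20 AP-1 and early response factors was expressed. Junb was at 220.3, 231.2 and 185.3 TPM, Jun at 129 ± 3.997 and Fosl1 at 106 ± 7.68, while Fos was at 6.40, 5.86 and 6.01. In Fosl1 57.2% of the exon bases overlap Ccdc85b on the opposite strand.

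HOX genes keep the address of a cell along the body and limb axis, lower numbers towards the head and trunk and higher numbers towards the end of the limb. Of 39 HOX genes 20 were expressed, 5 were low and 14 were at the floor, beside 50.2% expressed over all protein-coding genes. In the Hoxa cluster 10 of 11 were expressed, in Hoxc 7 of 9 and in Hoxd 3 of 9. None of the 10 Hoxb genes had a count in any library. In the Hoxa cluster Hoxa10, at 56.6, 50.01 and 51.0 TPM, and Hoxa11, at 47.7, 46.9 and 49.5, were the highest by both lengths, each above Hoxa5 and Hoxa6 (28.8 ± 6.05 and 26.1 TPM). In the Hoxc cluster Hoxc10 was the highest by both lengths, at 65.2, 64.3 and 59.3 TPM, ahead of Hoxc6 and Hoxc11 with means of 31.9 and 23.1. In the Hoxd cluster Hoxd8, Hoxd9 and Hoxd10 were at 45.3 ± 4.38, 30.8 ± 4.08 and 25.0 ± 0.806, and Hoxd11 was low at 0.385 ± 0.121. Of the most distal genes Hoxa13 and Hoxc13 were low, and Hoxd13 and Hoxd12 had no count. Overlapping transcripts may blur some members. Of the exon bases of Hoxa11 43.6% lie in Hoxa11os on the opposite strand, and 52.0% of those of Hoxd4 lie in neighbours on the same strand. The effect on their reads was not tested.

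**Figure D5:**
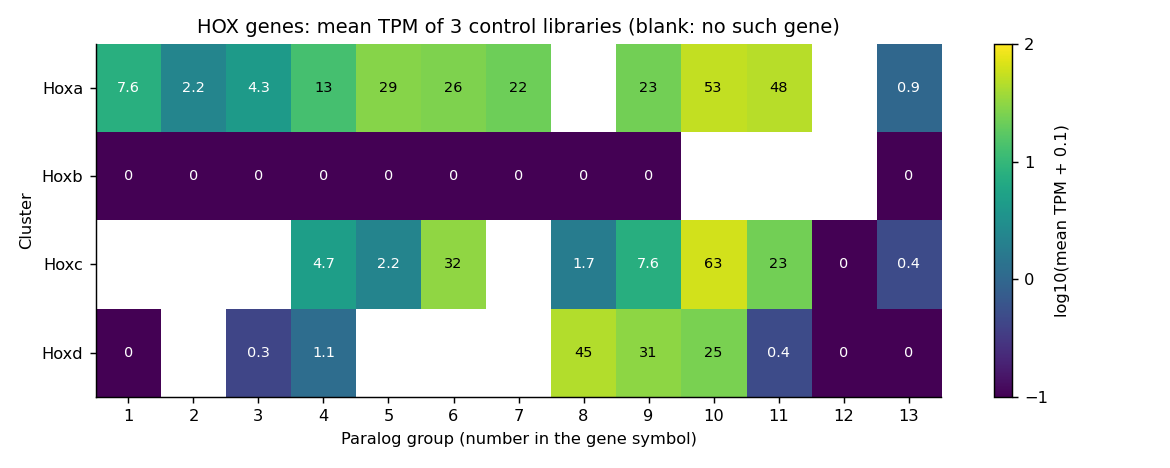
Mean TPM of the 3 control libraries for each of 39 HOX genes, by cluster (y axis) and paralog group (x axis), coloured by log10(mean TPM + 0.1). The Hoxb row reads 0 throughout, and Hoxc10, at 62.9 TPM, is the highest cell by deposited lengths.

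The 250 bases before the start of Hoxa5, with 24.5 to 35.7 TPM, are shown for their many CG dinucleotides, again in capitals. Hoxa5 lies on the minus strand of GRCm39 with the window chr6:52181568-52181817.
Hoxa5: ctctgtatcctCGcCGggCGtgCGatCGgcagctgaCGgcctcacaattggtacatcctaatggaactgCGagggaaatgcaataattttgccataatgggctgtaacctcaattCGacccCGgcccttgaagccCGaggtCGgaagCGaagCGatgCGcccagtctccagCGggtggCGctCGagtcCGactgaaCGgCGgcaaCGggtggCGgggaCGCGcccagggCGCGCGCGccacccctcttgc
The window held 28 CG dinucleotides. Over the 300-base windows the median observed over expected CpG ratio was 0.853 in the Hoxa cluster, 0.646 in Hoxb, 0.632 in Hoxc and 0.574 in Hoxd. The Hoxb median thus lay between those of Hoxa and Hoxd, and above the 0.221 of all genes at the floor.

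Other factors of limb position were also read. Of 35 limb position factors 18 were expressed. That is 51.4%, near the 50.2% of all protein-coding genes, so the count itself sets the list apart in no way. Pitx1, which sets hindlimb identity, had a TPM of 194.1, 195.0 and 145.5 and was the highest of them. Its hindlimb partner Tbx4 was at 1.62, 1.83 and 1.62 TPM, and the forelimb factor Tbx5 had no count. Tbx15 and Tbx18, factors of limb and trunk mesenchyme, were at 166 ± 9.24 and 61.0 ± 5.77, and Shox2 was at 77.3 ± 1.72. The homeobox genes Alx1, Alx4, Lmx1b and En1 and the factors Hand1 and Hand2 had no count.

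Of 30 proliferation genes and cell cycle brakes 29 were expressed, with Mki67 at 226.4, 208.5 and 279.8 TPM and Top2a at 380 ± 36.7. The brake Cdkn2a, whose transcripts encode p16 and p19ARF, was at 1451, 1496 and 1343 TPM and rank 52, and Cdkn2b beside it at 201 ± 17.4 (76.9 by canonical length). Trp53 was at 130 ± 2.66 (214 by canonical length) and its target Cdkn1a at 105 ± 6.43. Cdkn1c, an imprinted brake, had no count.

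None of the 172 protein-coding genes of the Y chromosome had a count, and Xist, the RNA of the inactive X, had 1, 0 and 1 counts. Of 930 protein-coding genes of the X chromosome 319 were expressed, Phex and Pls3 among them.

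Of 12 reference genes all were expressed, from Eef1a1 at 7429 ± 78.9 TPM to Tbp at 7.40 ± 1.04. Gapdh was at only 49.8 ± 2.38 (109 by canonical length) and rank 3660. Near-identical copies of Gapdh in the genome can take or remove its reads, and 41.65% of its exon bases lie in exons of Iffo1 on the opposite strand. Whether either changed its level was not tested. The highest lncRNA genes were Norad, at 197.4, 178.4 and 193.6 TPM, and Malat1, at 173.4, 133.2 and 224.3. Malat1 spread more than Norad. Of 9221 protein-coding genes with a mean of 10 CPM or more, 14 differed 2-fold or more between the highest and the lowest library. The widest was Scand1, with 135.4, 125.2 and 14.7 TPM, followed by Sumo2 with 43.8, 251.5 and 116.3. Mrps34, Zfp771 and Zbed6 came next, with ratios of 2.92, 2.55 and 2.44 between highest and lowest CPM. Of the Scand1 exon bases 90.0% lie in exons of Cnbd2 on the opposite strand, and of the Mrps34 bases 68.4% lie in exons of other genes. By canonical length the means of Mrps34 and Zbed6 moved from 28.2 and 15.6 to 46.7 and 10.05 TPM.

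Some levels above may hold reads of a neighbour. More than 15% of the exon bases of Ccn1, Ccn2, Csf1r, Ctsb, Fbn1, Gapdh, Hmga1, Hmgb2, Hoxd8, Jun, Mmp2, P4hb, Phospho1, Ptger1, Slc20a1, Tbx18 and Zbed6 also lie in exons of other genes, from 15.05% in Hoxd8 to 78.2% in Ptger1. The share of their reads that this touches was not tested.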

How the data were processed

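RNA of the 3 control samples was read from the whole-series table of raw counts. Per the labels, HISAT2 aligned the reads to GRCm39 and featureCounts 2.06 made the deposited counts per gene. The study's methods also name RSEM and a directional library kit. The strand setting of the counting and the treatment of reads that map to several places are not given in the sources used here. The authors also deposited gene length, biotype and transcription factor family, which were used as given. The counts of the other 6 samples were not used.

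Counts were divided by length and scaled to TPM, and by library total to CPM (Python 3.11.15, pandas 2.3.3). A gene was expressed at TPM 1 or more in each library and at the floor with at most 3 counts in every library. Totals ran from 12250628 to 15956441, and limits from counts cover counting error only. No test was run. edgeR 4.0.16 and DESeq2 1.42.0 (R 4.3.3) gave only the alternative scaling factors. The TPM step was tested on simulated data.

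Named were members of 33 gene lists (722 genes), the HOX genes, the 20 highest protein-coding genes, the 10 highest transcription factors and lncRNA genes, and the 5 most variable genes of at least 10 CPM. Members and lists were chosen with earlier results of these data known. Ank is the table's symbol for Ankh. The RefSeq promoter table held 76.4% of protein-coding genes, so that its check was void, and GENCODE canonical starts on GRCm39 were used in its place. They, the canonical lengths and the pyroptosis genes were chosen after seeing the data. Some members of the lists, counted with them, are not reported here by name.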

Additional observations from a re-analysis of the deposited data

How the results depend on the processing

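No test was run, so that only values could move. No paired analysis was possible because the results come from no test and describe 1 group. The 11021 expressed protein-coding genes were 11426 at a threshold of TPM 0.5, 9652 at TPM 5, 11040 at CPM 1 and 10964 with canonical transcript lengths. Of the gene lists, the 1 expressed skeletal muscle gene became 2 at TPM 0.5 and 0 at TPM 5 and at CPM 1, with 1 to 2 when a library was left out (2 without replicate 3). The 1 expressed lymphoid gene became 2 at TPM 0.5 and 0 at TPM 5 and at CPM 1, and the 2 neural and glial genes became 1 at TPM 5. The median TPM of expressed list members, 44.58, was 47.73 with TPM over protein-coding genes only, 40.40 with 200 bases taken from each length and 42.62 with canonical lengths. Their median rank of 4048 was 4246 with canonical lengths and 3432 in CPM. The spread among libraries, as the root mean square log2 CPM distance, was 0.264 and rose to 0.3418 with no filter on low counts. Of 224 named genes, 39 moved by over 1.5 times with canonical lengths and none with TMM or DESeq2 scaling. Bglap2 moved to 163.6 TPM with 200 bases taken from each length. Leaving out 1 library moved Sumo2 from 137.2 to 80.07 TPM (without replicate 2), Col2a1 from 0.0642 to 0.01147 (without replicate 3) and Hoxc13 from 0.388 to 0.1081 (without replicate 1). Thin counts limit the genes near TPM 1, where the spread is widest.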
